A study of Mus musculus with 6 samples.

Results

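The 9 genes described here carry the signals of interleukin 4, interleukin 6 and interleukin 21 (IL-4, IL-6 and IL-21) in T cells: the receptor chain genes Il4ra, Il6ra, Il6st and Il21r, the Janus kinase genes Jak2 and Tyk2, the transcription factor genes Stat3 and Stat6, and the feedback inhibitor gene Socs3. They were taken by symbol from a table of 24047 rows, in which all 9 were present, and all 9 passed the filter on low counts that left 10454 genes for testing. RNA was sequenced from CD4 T cells isolated from the spleens of B6.129 mice aged 7 weeks. The first group had 3 libraries labelled as a conditional knockout of Srsf1 (genotype Srsf1-flox/flox dLck.Cre), in which the distal promoter of the T cell kinase gene Lck drives the Cre recombinase, so that deletion is meant for T cells. The second group had 3 libraries labelled WT. Whether the WT mice carried the Cre transgene or a floxed allele is not stated. In both groups naive cells were cultured for 72 h with anti-CD3 at 0.5 µg/mL plus anti-CD28 at 1 µg/mL, which activate T cells through the antigen receptor and its costimulator, under conditions labelled Th0. They were then exposed for another 4 h to ionomycin at 1 µM together with phorbol myristate acetate at 100 ng/mL, which bypass the receptor.

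These receptors have no kinase activity of their own. Cytokine binding brings receptor chains together, Janus kinases bound to their tails phosphorylate them, and STAT proteins dock there, are phosphorylated, and enter the nucleus as dimers. In T helper cells IL-4 acts mainly through STAT6 towards the type 2 fate, while IL-6 and IL-21 act mainly through STAT3 towards the type 17 and follicular fates. SOCS3, whose gene is induced by STAT3, binds the gp130 chain and JAK kinases and limits IL-6 signalling.

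The libraries labelled Srsf1-cKO held 8573465 to 10184268 gene counts and the WT libraries 7781283 to 9650828, and no pair of replicates was as alike as sampling noise alone would make it. The targeted gene was not lower in the libraries labelled as its knockout: Srsf1 stood at 514 ± 39.1 CPM (gene counts scaled to library size) in the libraries labelled Srsf1-cKO and 495 ± 42.1 CPM in WT (SD, n = 3 each; edgeR adjusted p = 0.78). Reads summed over a gene do not show whether part of it was lost, and each direction below is that of libraries so labelled. The T cell genes Cd3e, Cd4 and Cd5 were well detected, at 160, 389 and 545 CPM in the libraries labelled Srsf1-cKO and 136, 465 and 648 CPM in WT, and the CD8 markers Cd8a and Cd8b1 summed to 16.7 to 22.8 CPM in the libraries labelled Srsf1-cKO and 24.6 to 42.5 CPM in WT. Of 9 T cell genes, Cd3g rose and 0 fell. A list of 6 B cell markers summed to 8.92 to 23.3 CPM in the libraries labelled Srsf1-cKO and 1.19 to 7.28 CPM in WT, and Cd79a of the 4 tested rose, while Ms4a1 was at 6.27 CPM in the libraries labelled Srsf1-cKO and 1.11 CPM in WT. A list of 13 myeloid and antigen-presenting cell markers summed to 139 to 161 CPM in the libraries labelled Srsf1-cKO and 66.6 to 101 CPM in WT, and of the 6 tested Lyz2, H2-Aa and Cd74 rose, with Cd74 at 81.7 CPM in the libraries labelled Srsf1-cKO and 45.1 CPM in WT. H2-Eb1 and Itgam were higher without passing (edgeR adjusted p = 0.051 and 0.119). H2-Ab1 was lower without passing, at 12.3 CPM in the libraries labelled Srsf1-cKO and 15.0 CPM in WT (edgeR adjusted p = 0.693). The macrophage gene Csf1r stood at 0.216 CPM in the libraries labelled Srsf1-cKO and 0.160 CPM in WT, and of 4 NK cell genes Ncr1 and Klra8 were at 0 in all 6 libraries and Klre1 averaged 0.616 CPM in the libraries labelled Srsf1-cKO and 0.155 CPM in WT. Socs3, Il4ra, Il6ra and Il6st are also expressed in myeloid and B cells, and the part of these cells in the results below was not tested. In bulk samples fewer cells of a type and less RNA per cell cannot be told apart.

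Of the 9 genes, Socs3 rose and Il4ra and Stat6 fell in the libraries labelled Srsf1-cKO, and the other 6 did not pass. STAT dimers bind the motifs TTCNNNGAA (favoured by STAT3 among others) and TTCNNNNGAA (favoured by STAT6), which read the same on both strands and were searched for in the RefSeq promoters of all 9 genes, 250 bases before to 50 bases after the gene start. The 3 promoters of the genes that passed are shown because they allow the reader to set the motif search beside the change in RNA. Capitals mark a motif match, and lower case throughout means that these letters are not in the window. The sequences run 5′ to 3′ on the strand of the gene and are from build GRCm38.p6, while the counts were made on mm9.
Socs3, chr11:117969317-117969616, minus strand: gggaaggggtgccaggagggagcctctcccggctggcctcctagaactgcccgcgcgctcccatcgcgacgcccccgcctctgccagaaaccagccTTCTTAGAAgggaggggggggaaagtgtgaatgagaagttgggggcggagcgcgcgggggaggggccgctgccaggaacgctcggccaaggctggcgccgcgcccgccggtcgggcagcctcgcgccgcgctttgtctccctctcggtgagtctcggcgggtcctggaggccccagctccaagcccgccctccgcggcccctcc
Il4ra, chr7:125552021-125552320, plus strand: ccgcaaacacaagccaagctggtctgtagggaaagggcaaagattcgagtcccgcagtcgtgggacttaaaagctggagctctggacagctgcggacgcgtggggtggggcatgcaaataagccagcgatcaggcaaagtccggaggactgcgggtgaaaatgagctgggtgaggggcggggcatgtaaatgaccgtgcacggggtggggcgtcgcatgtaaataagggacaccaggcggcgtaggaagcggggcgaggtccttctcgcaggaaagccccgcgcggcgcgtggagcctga
Stat6, chr10:127642736-127643035, plus strand: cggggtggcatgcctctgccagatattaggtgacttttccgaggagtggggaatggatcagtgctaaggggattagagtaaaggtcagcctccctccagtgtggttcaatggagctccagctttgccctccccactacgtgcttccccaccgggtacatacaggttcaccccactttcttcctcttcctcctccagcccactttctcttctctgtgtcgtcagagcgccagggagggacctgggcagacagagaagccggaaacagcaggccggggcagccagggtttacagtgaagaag

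Socs3 alone of the 9 promoters held a match, TTCTTAGAA, starting 154 bases before the gene start. Among 32851 RefSeq promoters of the same length, 8.3% held TTCNNNGAA, 6.95% held TTCNNNNGAA and 14.6% held either motif. The lone match among the 9 promoters is thus no excess over that background. The promoters also differed in base composition, from 81% G and C with 44 CpG dinucleotides for Jak2 to 56% with 7 for Il21r, with Socs3 at 73.3% and 31, Il4ra at 62% and 25, and Stat6 at 57.3% and 8. A match is a description of the letters and not a measured site.

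Levels of different genes were compared in FPKM, a unit that corrects for the length of the transcript and for sequencing depth, from the second deposited table. Jak2, the kinase bound by receptors of IL-6, IL-12, interferon gamma and others, was by far the most abundant of the 9. Its level was 289 ± 81.0 FPKM in the libraries labelled Srsf1-cKO and 375 ± 46.3 FPKM in WT, which put its mean at rank 216 and rank 170 of 24043 genes. By contrast Tyk2, the kinase paired with JAK2 or JAK1 at several of the same receptors, was the least abundant, at 2.96 ± 0.225 FPKM in the libraries labelled Srsf1-cKO and 2.74 ± 0.504 FPKM in WT. The Jak2 to Tyk2 ratio of FPKM was 135.6, 97.2 and 65.5 in the libraries labelled Srsf1-cKO, against 163, 164 and 97.2 in WT. Jak1 and Jak3, the kinases that sit on IL4RA and the common gamma chain, stood between them, with Jak1 at 66.1 and 78.0 FPKM and Jak3 at 13.3 and 17.1 FPKM (Srsf1-cKO and WT means).

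The order of the other genes was not the same in both groups. In WT, Stat3 (50.2 ± 4.44 FPKM) and Stat6 (50.1 ± 2.70 FPKM) shared a level, followed by Il4ra (26.2 ± 4.56) and Il21r (24.6 ± 9.64), whose libraries overlapped, then Il6st (10.4 ± 0.414) and Il6ra (6.72 ± 0.452), and last Socs3 (3.70 ± 0.455), whose libraries overlapped those of Tyk2. In the libraries labelled Srsf1-cKO, Stat3 (49.1 ± 5.51 FPKM) lay above Stat6 (38.3 ± 1.11 FPKM) in each library. Il21r (24.1 ± 6.64) and Il4ra (18.9 ± 2.22) came next and overlapped, then Il6st (11.8 ± 0.425), and then Socs3 (7.84 ± 1.33) and Il6ra (5.74 ± 1.24), which overlapped. Socs3 thus lay below Il6ra in every WT library, and above it in each of the libraries labelled Srsf1-cKO.

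**Figure D1:**
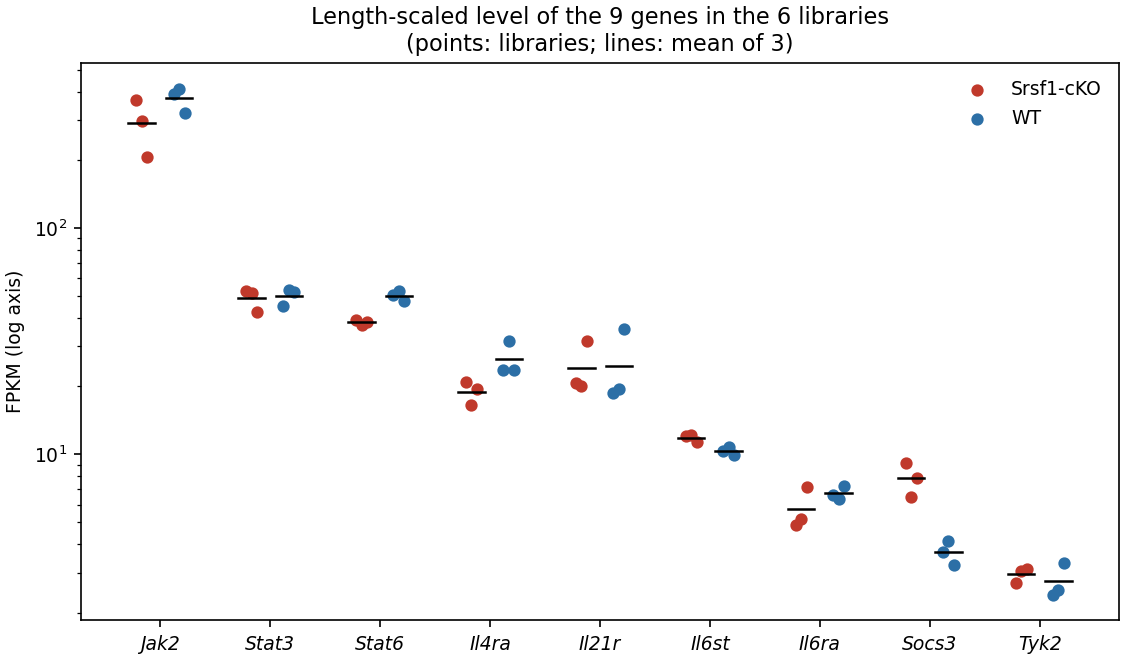
FPKM (log axis) of the 9 genes in the 3 libraries labelled Srsf1-cKO and the 3 WT libraries, with a line at each mean. Jak2 lies between 205 and 412 FPKM in all 6 libraries and Tyk2 between 2.395 and 3.32 FPKM.

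Changes between the groups were tested on counts with edgeR's quasi-likelihood test, and adjusted p-values are over all 10454 genes. At an adjusted p under 0.05, 18.4% of all tested genes passed (8.9% higher and 9.5% lower), beside 3 of the 9 described here (33.3%). The CPM values of the groups did not overlap for 39.4% of tested genes, beside 3 of 9. The median log2 fold change of the 9 genes was -0.15, beside 0.0051 for all tested genes. With 9 genes these shares are counts and no test of the group was made.

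The IL-4 receptor alpha chain gene Il4ra, which binds IL-4 and, with IL13RA1, IL-13, fell. Its CPM were 142, 108 and 131 in the libraries labelled Srsf1-cKO, against 176, 220.2 and 169.7 in WT. Every library labelled Srsf1-cKO lay below every WT library, with the means at 127 ± 17.3 and 189 ± 27.5 CPM (SD, n = 3 each). This was a log2 fold change of -0.57 (SE 0.16) with a 95% confidence interval of -0.92 to -0.22 and an edgeR adjusted p of 0.037, or -32.5%. Over the 6 libraries alone, the exact two-sided permutation p was 0.1, the smallest that 3 against 3 allows. The fall passed only narrowly: without WT replicate 3 it still passed, but leaving out any other library in turn gave adjusted p between 0.0544 and 0.156. In FPKM, limma gave a log2 fold change of -0.45 and an adjusted p of 0.0846, where 18.7% of the 9617 genes tested passed.

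Il21r, the gene of the IL-21 receptor, is the next protein-coding gene to Il4ra on its chromosome in the GENCODE annotation, and it did not pass. It had 69.8, 65.3 and 104.7 CPM in the libraries labelled Srsf1-cKO, against 70.6, 67.9 and 128 CPM in WT. In each group the library numbered 3 was the highest and the others lay close together. Its log2 fold change of -0.15 (SE 0.27) had a 95% confidence interval of -0.77 to 0.47 and an edgeR adjusted p of 0.73, and without WT replicate 3 it was 0.19.

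Il6ra, the alpha chain that binds IL-6, did not pass. Its CPM were 22.7, 22.3 and 33.2 in the libraries labelled Srsf1-cKO, against 33.1, 30.4 and 35.0 in WT. Replicates 1 and 2 labelled Srsf1-cKO lay below all WT libraries, while replicate 3 lay among them, and the log2 fold change was -0.33 (SE 0.19; edgeR adjusted p = 0.251). Il6st, the gene of gp130, the signalling chain shared by the IL-6 family, was the steadiest of the 9, with a 1.22-fold range of FPKM over the 6 libraries. It had 88.3, 86.8 and 82.6 CPM in the libraries labelled Srsf1-cKO, against 84.2, 80.9 and 77.9 CPM in WT. The groups overlapped in CPM. In FPKM, to which the scaling of the CPM was not applied, each library labelled Srsf1-cKO (11.4 to 12.1) lay above each WT library (9.95 to 10.8). The log2 fold change of Il6st was 0.08 (edgeR adjusted p = 0.641), with a 95% confidence interval of -0.18 to 0.35, a change between -11.9% and 27.6%. With library-size scaling of the counts the log2 fold change was 0.19 (edgeR adjusted p = 0.275). The Il6ra to Il6st ratio of CPM was 0.257, 0.257 and 0.402 in the libraries labelled Srsf1-cKO, against 0.392, 0.376 and 0.449 in WT (exact two-sided permutation p = 0.3, adjusted p = 0.375 over 5 ratios). Only replicate 3 labelled Srsf1-cKO reached the WT range.

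**Figure D2:**
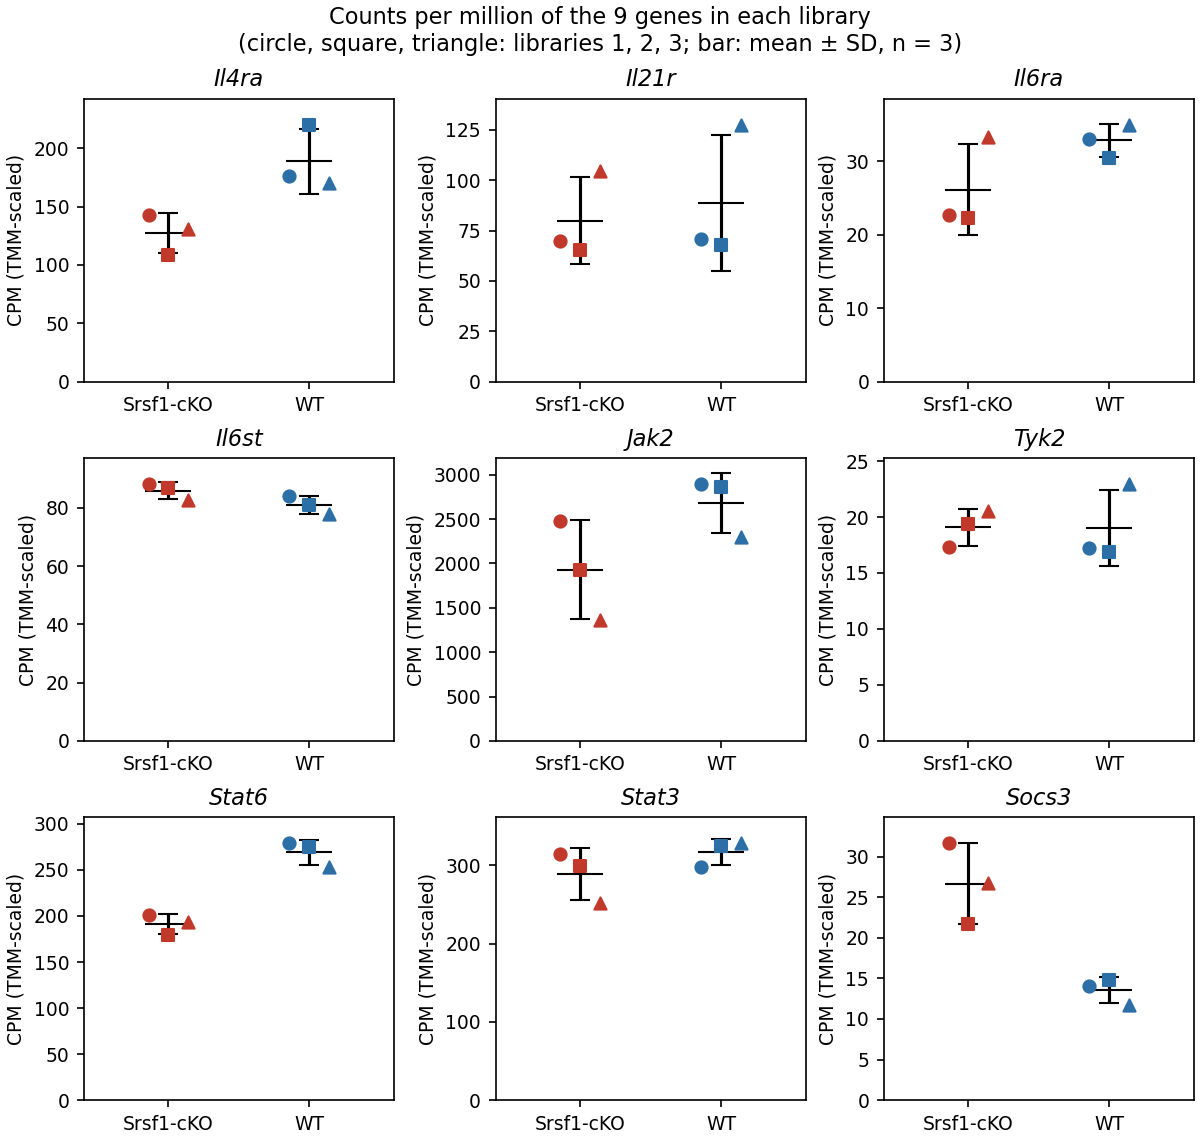
TMM-scaled CPM of each gene in the 3 libraries labelled Srsf1-cKO (left) and the 3 WT libraries (right), with the mean and SD in black. The groups do not overlap for Il4ra, Stat6 and Socs3.

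Of the kinases, neither passed. Jak2 had 2482, 1929.7 and 1367 CPM in the libraries labelled Srsf1-cKO, against 2897, 2858 and 2294 CPM in WT. The spread within the first group (SD 557) was wider than in WT (SD 338), and replicate 1 labelled Srsf1-cKO lay within the WT range. Its log2 fold change of -0.48 (SE 0.21) had a 95% confidence interval of -0.95 to -0.0051 and an edgeR adjusted p of 0.1397, and it moved to -0.28 without Srsf1-cKO replicate 3. Jak2 alone took 0.143% to 0.252% of all counts of a library labelled Srsf1-cKO and 0.223% to 0.281% of a WT library. Tyk2 had 17.3, 19.4 and 20.6 CPM in the libraries labelled Srsf1-cKO, against 17.2, 16.9 and 23.0 CPM in WT. The first range lay inside that of WT, and the log2 fold change was 0.0054 (95% confidence interval -0.41 to 0.42; edgeR adjusted p = 0.988), a direction that RLE scaling turned.

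Stat6, the transcription factor gene of the IL-4 pathway, fell, while Stat3, that of the IL-6 and IL-21 pathways, did not pass. Stat6 had 201, 179.7 and 193 CPM in the libraries labelled Srsf1-cKO, against 279, 274 and 253 CPM in WT. Every library of the first group lay below every WT library, and the spread within each group was narrow, with SDs of 10.7 and 13.7 CPM around means of 191 and 269 CPM (n = 3 each). Stat6 thus had a log2 fold change of -0.49 (SE 0.12), or -28.9%, with a 95% confidence interval of -0.76 to -0.23, an edgeR adjusted p of 0.023 and an exact two-sided permutation p of 0.1. In FPKM limma gave -0.38 with an adjusted p of 0.047, which was 0.0511 to 0.184 with any 1 library left out. On counts, 3 libraries each ended the call when left out: replicate 1 labelled Srsf1-cKO (adjusted p = 0.0566), replicate 2 of that group (0.123) and WT replicate 1 (0.0962).

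Stat6 lies tail to tail with Nab2, a corepressor gene of EGR factors, on the other strand, and whether the authors counted by strand is not stated. Nab2 fell to 33.8, 25.1 and 45.3 CPM in the libraries labelled Srsf1-cKO, against 153, 109.9 and 186 CPM in WT (log2 fold change -2.10; edgeR adjusted p = 0.00435). In the GENCODE M21 annotation the genes share 40 exonic bases, which are 0.909% of the exonic bases of Stat6. Stat3 likewise shares 72 exonic bases (0.756% of its own) with Stat5a on the other strand. Antisense genes overlap more of 3 others: Gm44876 shares 571 exonic bases (9.51%) with Il4ra, 1700084C06Rik 554 (8.07%) with Tyk2 and Gm42809 242 (2.8%) with Il6ra. These antisense genes were not among the deposited gene symbols and could not be analysed. If strand was not used, their reads in the shared bases cannot be told from those of the 3 genes.

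Stat3 had 315, 299 and 252 CPM in the libraries labelled Srsf1-cKO, against 298, 325 and 328 CPM in WT. The groups overlapped, and replicate 3 labelled Srsf1-cKO was the lowest of the 6. With a log2 fold change of -0.13 (SE 0.13), its 95% confidence interval ran from -0.43 to 0.16 (edgeR adjusted p = 0.483), so that a fall of more than 25.6% lies outside the interval. The Stat3 to Stat6 ratio of CPM, used for its change and not its size, was 1.57, 1.67 and 1.31 in the libraries labelled Srsf1-cKO, against 1.07, 1.19 and 1.30 in WT. Each value of the first group was higher than each of WT, replicate 3 of both groups by the least, and the exact two-sided permutation p was 0.1 (adjusted p = 0.25 over 5 ratios).

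Socs3, the feedback inhibitor, had the largest change of the 9 and rose. Its CPM were 31.7, 21.7 and 26.8 in the libraries labelled Srsf1-cKO, against 14.0, 14.8 and 11.7 in WT, from raw counts of 293, 194 and 285 against 127, 114 and 89. The groups lay well apart, with means of 26.7 ± 5.0 and 13.5 ± 1.601 CPM (SD, n = 3 each). Socs3 was 1.97-fold higher, a log2 fold change of 0.98 (SE 0.20) with a 95% confidence interval of 0.53 to 1.42, an edgeR adjusted p of 0.0138 and an exact two-sided permutation p of 0.1. In FPKM limma gave 0.90 with an adjusted p of 0.0131, which was 0.0640 when WT replicate 1 was left out and 0.0635 when replicate 2 labelled Srsf1-cKO was. The rise passed in every leave-one-out fit on counts except without WT replicate 1, where the log2 fold change was 0.99 and the adjusted p 0.0691. The Socs3 to Stat3 ratio of CPM was 0.1005, 0.0723 and 0.106 in the libraries labelled Srsf1-cKO, against 0.0471, 0.0456 and 0.0358 in WT (exact two-sided permutation p = 0.1, adjusted p = 0.25).

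**Figure D3:**
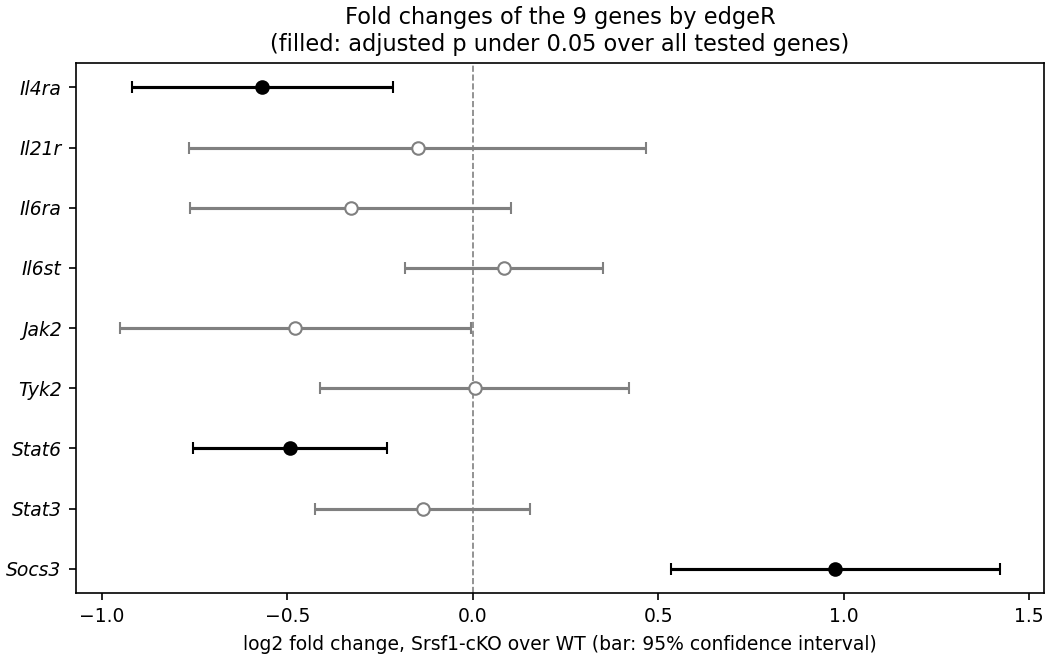
Log2 fold change of each gene, Srsf1-cKO over WT, with its 95% confidence interval from edgeR. Socs3 (0.98) lies to the right of 0, Il4ra (-0.57) and Stat6 (-0.49) to the left, and the open symbols did not pass.

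The genes whose CPM profile over the 6 libraries was most like that of each of the 3 were found by the root mean square difference of centred log2 CPM. Fold changes near that of the member follow from this choice. For Stat6 they were Gm6548, Btf3 and Psd4, with differences of 0.0334, 0.0343 and 0.0400 and log2 fold changes of -0.53, -0.51 and -0.50. For Il4ra they were Ascc1, Acp6 and Pbxip1, with differences of 0.0616, 0.0686 and 0.0817. Their log2 fold changes were -0.52, -0.53 and -0.61, and none passed (edgeR adjusted p = 0.0911, 0.0775 and 0.0673). For Socs3 they were Dnajc19, Exosc3 and Arpp19, with larger differences of 0.148, 0.154 and 0.155 and log2 fold changes of 0.82, 0.79 and 0.86.

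Other genes of the pathway were taken from 6 lists, of which 66 of 78 genes passed the filter, and 10 rose and 6 fell (24.2%, beside 18.4% of all tested genes). Among the ligands 4 of 8 tested rose and 0 fell, with a median log2 fold change of 1.30. Il4 and Il13 encode cytokines whose receptors contain the IL-4 receptor alpha chain. They rose with log2 fold changes of 4.29 and 2.90 (edgeR adjusted p = 0.00281 and 0.00663), in the same libraries in which the gene of that chain fell. Both were low in WT, so these large folds rest on few WT counts. Il4 had 12.9, 14.5 and 16.9 CPM in the libraries labelled Srsf1-cKO, against 0.663, 1.17 and 0.396 CPM in WT. For Il13 the values were 60.8, 42.4 and 62.9 CPM against 5.86, 13.1 and 3.30 CPM. Without WT replicate 2 the log2 fold change of Il13 was 3.57. Il13ra1, the gene of the other chain of the IL-13 receptor, stood at no more than 1.62 CPM in any library and was not tested. Il21, the ligand of the IL-21 receptor, had 5.40, 3.68 and 6.76 CPM in the libraries labelled Srsf1-cKO, against 0.332, 0.650 and 1.72 CPM in WT (log2 fold change 2.57, SE 0.52, edgeR adjusted p = 0.0138). Every library labelled Srsf1-cKO was above every WT library, at a low level. Without WT replicate 3 the log2 fold change of Il21 was 3.41, and without WT replicate 1 its adjusted p was 0.0642.

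Lif, an IL-6 family cytokine that acts through gp130, was the most abundant ligand, at 157.6 FPKM in the libraries labelled Srsf1-cKO and 84.6 FPKM in WT. It had 833, 679 and 934 CPM in the libraries labelled Srsf1-cKO, against 427, 427 and 552 CPM in WT, with no overlap (log2 fold change 0.80, SE 0.16, edgeR adjusted p = 0.0147). The other chain of its receptor, Lifr, stood at no more than 1.502 CPM in any library and was not tested. Il6 itself was low, at 3.46, 2.01 and 1.22 CPM in the libraries labelled Srsf1-cKO, against 0.221, 1.43 and 0.264 CPM in WT, and did not pass (edgeR adjusted p = 0.0995).

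Of 10 tested partner and related receptor chains 0 passed by edgeR, 4 had an unadjusted p under 0.05, and 2 passed by DESeq2 (Il2ra and Il2rb), which called 21.9% of all genes. The share of all tested genes with an unadjusted p under 0.05 was not counted. It is at least the 18.4% that passed after adjustment, but its size is not known. The unadjusted counts in this paragraph thus have no background beside them, and nothing is drawn from them. Il2ra, the high-affinity chain for IL-2, was the most abundant, at 857 ± 70.0 FPKM in the libraries labelled Srsf1-cKO and 617 ± 10.03 FPKM in WT. Its adjusted p was 0.0641 by edgeR on counts, 0.0467 by DESeq2 on counts and 0.0235 by limma on FPKM. Il2rg, the common gamma chain that pairs with IL4RA and IL21R, stood at 660.1 ± 25.8 CPM in the libraries labelled Srsf1-cKO and 639 ± 32.4 CPM in WT (edgeR adjusted p = 0.794). Of the 7 other JAK and STAT genes 0 passed by edgeR, 2 had an unadjusted p under 0.05, and 1 passed by DESeq2. Stat5a, a factor of IL-2 signalling, was the most abundant of them, at 223 ± 34.1 FPKM in the libraries labelled Srsf1-cKO and 191 ± 20.5 FPKM in WT (on counts, edgeR adjusted p = 0.597).

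Of 18 inhibitors and sheddases 4 fell and 0 rose (22.2%, near the 18.4% of all tested genes). They were Ptpn6, the gene of the phosphatase SHP-1 (104 ± 26.1 CPM in the libraries labelled Srsf1-cKO and 196 ± 24.2 CPM in WT; edgeR adjusted p = 0.0147), Pias3, an inhibitor of STAT3 (2.75 and 6.22 CPM; adjusted p = 0.0202), and Socs7 and Socs5 (log2 fold changes -0.58 and -1.11; adjusted p = 0.0469 and 0.0481). Socs3 was thus the one SOCS gene that rose at this threshold, while Socs1, an inhibitor of IL-4 and interferon signalling, had 16.5, 16.9 and 35.6 CPM in the libraries labelled Srsf1-cKO, against 9.95, 11.97 and 12.5 CPM in WT (log2 fold change 1.01, edgeR adjusted p = 0.0523, DESeq2 adjusted p = 0.0149). Cish, a target of STAT5 and the most abundant of the list, stood at 125 ± 11.8 FPKM in the libraries labelled Srsf1-cKO and 122 ± 29.0 FPKM in WT (on counts, edgeR adjusted p = 0.832).

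Genes known as targets of the 2 factors were counted in the same way. Of 16 tested STAT3 target genes 3 rose (Il10, Ahr and Fos, log2 fold changes 2.75, 0.79 and 0.90) and 2 fell (Junb and Fosl2, -0.72 and -0.94), with a median of -0.24. Il10 was low, at 11.5, 4.80 and 8.07 CPM in the libraries labelled Srsf1-cKO, against 1.11, 1.30 and 1.19 CPM in WT. Over all tested genes 8.9% were higher and 9.5% lower. Irf4, the most abundant at 658 FPKM in the libraries labelled Srsf1-cKO and 471 FPKM in WT, had an edgeR adjusted p of 0.0643, while DESeq2 on counts gave 0.046 and limma on FPKM 0.0269, and its groups did not overlap. Of 7 STAT6 target genes 3 rose and 0 fell (42.9%, beside 18.4% of all tested genes): Gata3, the factor that specifies type 2 helper cells (1.153), the chemokine receptor gene Ccr8 (1.44) and the cytokine gene Il24 (3.47). Il24 had 106, 55.9 and 47.7 CPM in the libraries labelled Srsf1-cKO, against a low 3.10, 14.0 and 1.85 CPM in WT. Its log2 fold change was 4.78 without WT replicate 2. Of the 7, 5 had log2 fold changes above 0 and 2 below, with a median of 0.98, in the libraries in which Stat6 itself was lower. Xbp1, the most abundant of them, did not pass, at 65.1 ± 5.71 FPKM in the libraries labelled Srsf1-cKO and 50.3 ± 15.7 FPKM in WT (on counts, edgeR adjusted p = 0.364). Gfi1 did not pass by edgeR (log2 fold change 0.98, adjusted p = 0.0714), while DESeq2 on counts gave 0.0141 and limma on FPKM 0.0436. Each of these genes has other regulators, and which factor acted on it was not measured. Of the genes of these lists that passed, Il4, Il13 and Il10 also passed with each library left out in turn, and every other one lost its call without WT replicate 1 (adjusted p between 0.0612 for Ptpn6 and 0.148 for Ahr). Gata3 and Ccr8 also lost theirs without Srsf1-cKO replicate 2 (0.0572 and 0.0611), as did Ptpn6, Pias3, Socs5, Socs7, Ahr, Fos, Junb and Fosl2. Without Srsf1-cKO replicate 1 the calls of Pias3, Socs5, Socs7 and Fos were lost, and without replicate 3 of that group those of Socs5, Socs7, Ahr, Fos, Junb and Fosl2. Leaving out WT replicate 2 ended those of Ahr, Fos, Junb and Fosl2, and WT replicate 3 those of Socs5 and Socs7. Over all 6 lists, 3 rose and 0 fell when WT replicate 1 was left out, and 15 rose and 7 fell when WT replicate 3 was. Of the libraries labelled Srsf1-cKO, leaving out replicate 1 gave 10 higher and 3 lower, replicate 2 gave 7 higher and 0 lower, and replicate 3 gave 8 higher and 2 lower.

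**Figure D4:**
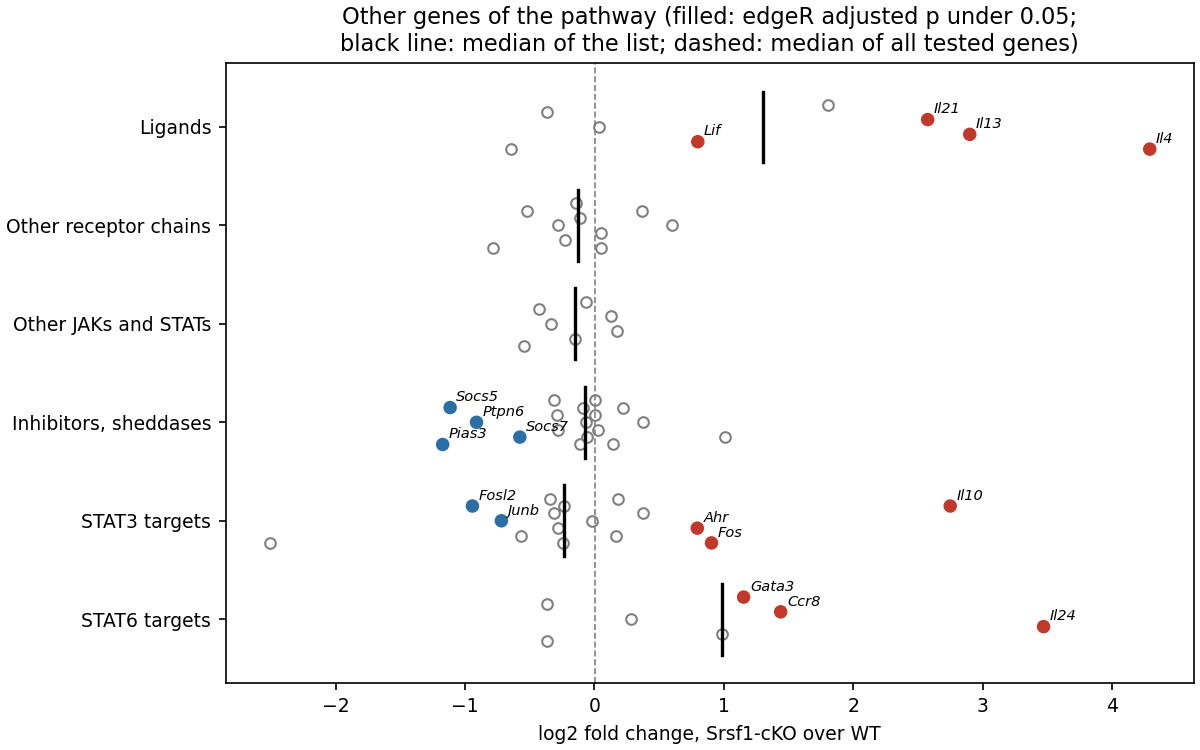
Log2 fold changes, Srsf1-cKO over WT, of the 66 tested genes of the 6 pathway lists, with the median of each list as a black line. Named filled points passed, in red where higher (from Lif at 0.80 to Il4 at 4.29 among the ligands). Blue marks those that were lower (4 of the inhibitors and 2 of the STAT3 targets, Junb and Fosl2).

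The dependence of the changes on single libraries and settings is shown for Jak2 and the 3 genes that passed. Socs3 kept a log2 fold change between 0.84 and 1.11 under all 15 alternatives to the fit on counts, Il4ra between -0.66 and -0.45, Stat6 between -0.55 and -0.39, and Jak2 between -0.70 and -0.28. The directions of these 4 were thus shared by all alternatives, while the threshold was passed in 14 of 15 for Socs3, 12 for Stat6, 9 for Il4ra and 1 for Jak2.

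**Figure D5:**
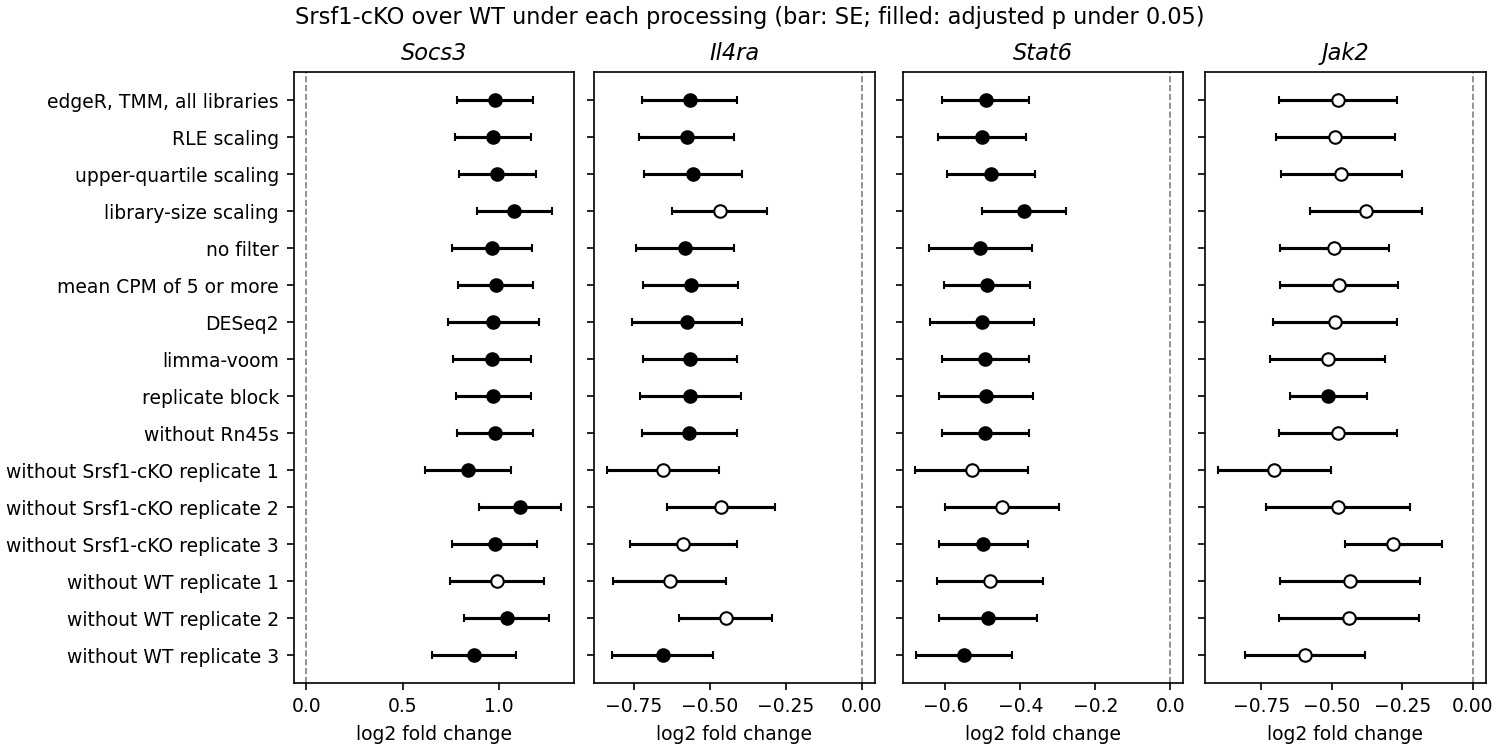
Log2 fold change, Srsf1-cKO over WT, with its SE for 4 genes under the fit described and 15 alternatives. Filled symbols have an adjusted p under 0.05, and all values of a gene lie on the same side of 0.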

How the data were processed

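The authors deposited whole-number read counts per gene symbol for the 6 libraries, a table of FPKM values and an alignment report whose file header names STAR 2.4.2a (the deposited report gives read numbers and percent mapped, here 78.0% to 80.9% uniquely mapped). Per the submitters' processing notes STAR, Cufflinks and mm9 were used. The FPKM table is named as counts by the authors, and its unit was read from its values. The labels name no annotation, counting program or strand setting. The design text names a stranded mRNA kit, and reads were of 75 bp.

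Here counts were tested with edgeR 4.0.16 (R 4.3.3; filterByExpr, TMM, quasi-likelihood test, genotype as the only term, Benjamini-Hochberg adjustment over all tested genes, threshold 0.05). CPM are gene counts over the TMM-scaled library size. For FPKM, limma 3.58.1 with a mean-variance trend was run on log2(FPKM + 1) over genes that reached 1 in 3 or more libraries, a scale that understates changes of low genes. No TMM scaling was applied to the FPKM. Ratios were compared by exact permutation tests. The fits were tested on simulated data. Alternatives were 3 other scalings, 2 other filters, DESeq2 1.42.0, limma-voom, a replicate block, leaving out the 45S ribosomal RNA precursor (Rn45s) or each library, and for FPKM another pseudocount and no filter. Each library is labelled as a sample of its own, and the design text gives 3 mice for each genotype.

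The members, lists, tests and alternatives were chosen with earlier results of these data known. Named genes are the 9 members, Srsf1, the genes of each list that passed and its most abundant tested gene, the 3 genes of mean log2 CPM of 3 or more most like each member that passed, and the markers of highest CPM. Il6, Lifr, Il13ra1, Jak1, Jak3, Il2rg, Il2rb, Socs1, Gfi1, Nab2, Cd3e, Cd3g, Cd4, Cd8a, Cd79a, Lyz2, H2-Aa, H2-Ab1, H2-Eb1, Itgam, Csf1r, Ncr1 and Klra8 are outside this rule and were named after their values were seen. All columns with values of a library were used. The values of 1 gene of the JAK and STAT list are not reported here.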

Additional observations from a re-analysis of the deposited data

How the results depend on the processing

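Leaving out each library in turn moved the number of all genes that passed between 195 (without WT replicate 1) and 1989, of the 9 genes that rose between 0 and 1 and that fell between 0 and 2, and of pathway genes that rose between 3 and 15 and that fell between 0 and 7. It was 1121 and 234 genes in all without Srsf1-cKO replicates 1 and 2. On the FPKM scale 2 of the 9 passed (Socs3 and Stat6), 0 to 1 with a library left out. With library-size scaling only, 1 of the 9 fell (Il4ra had adjusted p = 0.0665), 1268 genes were higher and 709 lower (930 and 993 with TMM), and all tested genes had a median of 0.11 (log2). The log2 fold change of Tyk2 was -0.0044 with RLE scaling, -0.0076 with no filter, -0.0039 with DESeq2, and -0.079 to 0.14 with a library left out. That of Il21r was -0.39 to 0.19 on counts and -0.20 to 0.30 in FPKM, and that of Stat3 in FPKM -0.11 to 0.061, with a library left out.

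Libraries with the same number deviated together with correlations of 0.237, 0.0106 and 0.281, so the numbers were not taken to pair them, and not every library correlated best with its own number. With a replicate block 1 of the 9 rose and 3 fell on counts (Jak2 with adjusted p = 0.031), and 1 passed in FPKM. Of the 5 ratios none changed direction in FPKM or with a library left out. The cause of these changes was not tested. Socs3 had 89 to 127 counts in the WT libraries, the fewest of the 9.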
